A study of Brassica rapa subsp. pekinensis with 6 samples.

Results

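Exonic circRNAs are covalently closed RNAs in which the end of an exon is joined back to the start of the same or an upstream exon of a host gene. They are recognised only by the reads that cross this back-splice junction. Because they have no free ends they resist exonucleases, and circular and linear RNA are made from the same host transcript. The circRNA table held 976 circRNAs from germinated Chinese cabbage seeds (Brassica rapa subsp. pekinensis), of which 394 were typed as exonic with a named host gene and form the set described here. The rest were 437 intergenic and 145 intronic circRNAs.

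All seeds came from the doubled haploid line FT. Seeds of both groups were germinated at room temperature. The 3 Nor libraries were made from seeds then kept at room temperature in the dark for about 48 h. The 3 Ver libraries were made from germinated seeds held at 4 °C in the dark for 25 days. Both groups were sampled at a similar length, each culture dish of many seeds was a biological repetition, and RNA was depleted of rRNA before strand-specific sequencing. Temperature and time since sowing therefore cannot be told apart, and a lower number of cells of a type cannot be told apart from less RNA per cell. The seed-reserve and greening transcripts differed widely between the groups. Summed oleosin FPKM (fragments per kilobase of transcript and 1000000 mapped fragments) lay at 20.3 to 23.2 in Nor and 1046 to 1080 in Ver, with 14 of 14 tested oleosin transcripts called higher in Ver. Chlorophyll a-b binding transcripts summed to 3470 to 3528 FPKM in Nor and 12602 to 12733 in Ver. Isocitrate lyase, an enzyme of reserve oil use, lay at 1603 to 1622 FPKM in Nor and 169 to 172 in Ver. Other markers were mixed by transcript. Malate synthase summed to 349 to 360 FPKM in Nor and 105 to 107 in Ver, yet 2 of 4 tested transcripts were called higher and 1 lower. Napin and cruciferin sums were higher in Ver. Of 11 tested napin transcripts 5 were called higher and 2 lower, and of 4 cruciferin transcripts 3 and 1. The part of these differences in the circRNA results was not tested.

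The exonic circRNAs were many, and few of them had more than a handful of reads. They made up 40.4% of all circRNAs and carried 1446 junction reads, 5.80% of all junction reads, against 22961 reads on the intergenic circRNAs. Of the 394 members, 350 were read in a single library, 20 in at least 3 libraries and 2 in all 6, and 173 rested on a single read. Thin coverage was not particular to them: the median was 2 reads for exonic, 1 for intronic and 5 for intergenic circRNAs, and 132 of the 145 intronic circRNAs were also read in a single library. Against all other circRNAs, most of whose reads were intergenic, a detected exonic circRNA had fewer reads on average in each of the 6 libraries. The exonic means ran from 2.26 to 4.54 reads and the other means from 14.8 to 27.3 reads. The mean difference was -18.9 reads (exact sign permutation over the 6 libraries, two-sided p = 0.031, the smallest this design allows). No intergenic circRNA rested on a single read, whereas 92 of the 145 intronic ones did, so the kinds may not have shared a detection limit. The medians, the single-library numbers and this difference were not adjusted for that.

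The members fell into 2 kinds of entry, a division found after the data were seen. In 213 members the table listed whole exons by number, and in 181 it gave intron coordinates. Among the latter, both ends abutted an annotated intron within 1 bp in 20 members, 1 end did so in 30 and neither end in 131. The exon-listed members carried 298 reads and the 131 members with neither end at a boundary carried 809. A library value of 1 read occurred 183 times, always in exon-listed members. The lowest library value of any coordinate-listed member was 2 reads, so the kinds of entry did not share a detection limit.

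The exon-listed members consisted almost wholly of internal exons. Such entries are written as whole annotated exons, so this layout is no separate evidence of back-splicing. Exon 1 was included in 1 of 213 and the last exon of the host in 1 of the 205 with a matched host, while 48 began at exon 2 and 40 at exon 3. A single exon made up 60 of them, 63 held 2 exons, 41 held 3 and 49 held 4 or more, up to 12. Their median span on the genome was 480 bp, and the 20 coordinate-listed members with both ends at introns had a median of 613.5 bp. The longest was circRNA717, which ran over 25 exons and 8621 bp of BraA01g009750.3C (A01, 4940280 to 4948900, B. rapa v3.0). The members with neither end at a boundary were short, with a median span of 191 bp, and 72 of the 131 spanned 130 to 200 bp.

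Strand separated the same groups. A host transcript was matched in the linear table for 379 members on 315 hosts, and the hosts of the other 15 members were not analysed here. All 379 lay inside the host span. Of these, 303 were on the strand of the host and 76 on the opposite strand. All 76 opposite-strand members had neither end at an annotated boundary, and they carried 582 reads on 38 hosts. As annotated, these members do not join exon ends of the named host. They are exonic by the deposited type only and do not meet the definition given above. Every matched member with a boundary at 1 or both ends was on the strand of its host.

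The hosts of the 2 classes also differed in gene structure and in the level of the annotated transcript. The 233 members with a boundary at both ends (exon-listed members included) sat on 215 matched hosts with a median of 11 exons and a median level of 2.01 FPKM. The remaining members sat on 102 matched hosts with a median of 4.5 exons and 59.8 FPKM, and 2 hosts held both classes. These levels are not those of the whole gene. The annotated transcript held a median of 19.1% of the counts of its assembled gene in the boundary class. In hosts without such members it held 98.0%. Over all 33354 reference transcripts these medians were 4 exons and 1.02 FPKM. Hosts of the boundary class made up 0.536% of transcripts below 1 FPKM, 0.606% at 1 to 5, 0.883% at 5 to 20, 0.978% at 20 to 100 and 0.615% at 100 FPKM or more. By exon number they made up 0% of transcripts of 1 exon and 6.13% of those with over 20 exons. This class is defined by annotated exon boundaries, so a transcript without introns offers none and one with more exons offers more. How much of the difference in exon number follows from this definition was not tested. Hosts of the remaining class made up 0.0783% of transcripts below 1 FPKM and 8.40% of those at 100 FPKM or more. Transcripts are not independent replicates, and these shares are given as a description.

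**Figure D1:**
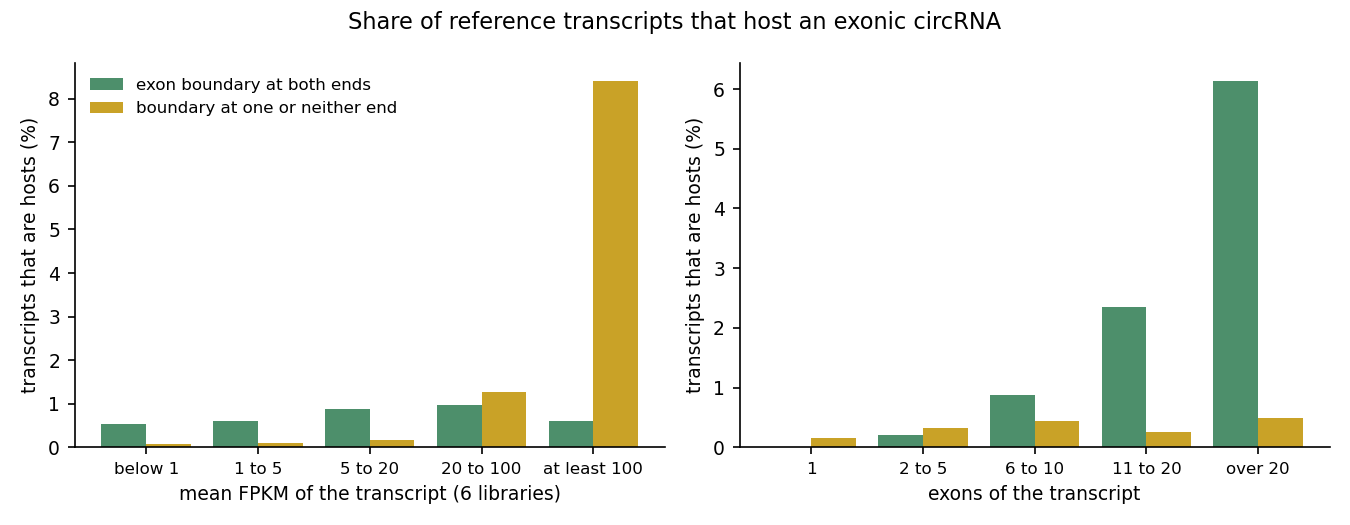
Share of reference transcripts that host an exonic circRNA (y axis, %), by mean FPKM over the 6 libraries (left) and by number of exons (right). Green bars are hosts of members with an exon boundary at both ends and yellow bars are hosts of the remaining members. Green bars climb with exon number, to 6.13% over 20 exons, and yellow bars climb with level, to 8.40% at 100 FPKM or more. The green class is defined by exon boundaries, of which transcripts with more exons offer more.

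In the comparison of Ver with Nor, exonic junction reads as a whole overlapped between the groups. The Nor libraries held 211, 233 and 219 exonic reads and the Ver libraries 249, 295 and 239. In junction reads per 1000000 mapped reads (RPM) this was 2.93 ± 0.46 in Nor and 3.41 ± 0.44 in Ver (SD, n = 3 each; exact permutation, two-sided p = 0.30, where 0.1 is the smallest p that 3 against 3 libraries allow). The Nor values of 2.62, 3.46 and 2.70 overlapped the Ver values of 3.33, 3.88 and 3.02. Detected members numbered 86, 78 and 97 across Nor and 77, 65 and 69 across Ver, so the lowest Nor library exceeded the highest Ver library (exact permutation p = 0.1, n = 3 each). With at least 2 reads required in the library the order did not hold, since the means were then 47 in Nor and 49.3 in Ver.

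As a share of all junction reads, exonic reads were higher in every Ver library. The share was 4.61% (95% exact binomial interval 4.02 to 5.26), 5.33% (4.68 to 6.03) and 3.99% (3.49 to 4.54) in the Nor libraries. It was 6.55% (5.79 to 7.39), 7.27% (6.49 to 8.11) and 9.03% (7.96 to 10.2) in the Ver libraries (exact permutation p = 0.1, n = 3 each). Without the members of BraA05g025150.3C, the host with the most reads, the shares lay at 3.67% to 5.07% in Nor, and Ver replicate 1, at 4.596%, fell within that range, below 5.66% and 6.08% in the other Ver libraries (exact permutation p = 0.2, n = 3 each). The total of junction reads was 4375 to 5491 in Nor and 2647 to 4059 in Ver. The binomial intervals cover counting error within a library only, not the spread between libraries. They also treat reads as independent, which reads amplified without molecular identifiers need not be.

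Under this total the 2 classes of member differed in opposite directions. Members with a boundary at both ends had 94, 104 and 120 reads in Nor and 73, 50 and 47 in Ver. This was 1.40 ± 0.20 RPM in Nor and 0.742 ± 0.205 in Ver, with no overlap (exact permutation p = 0.1, n = 3 each). The remaining members had 117, 129 and 99 reads in Nor and 176, 245 and 192 in Ver. This was 1.53 ± 0.35 and 2.67 ± 0.49 RPM, again with no overlap (exact permutation p = 0.1, n = 3 each). The boundary class made up 44.5%, 44.6% and 54.8% of exonic reads in Nor and 29.3%, 16.9% and 19.7% in Ver (exact permutation p = 0.1, n = 3 each), which compares the classes within each library.

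**Figure D2:**
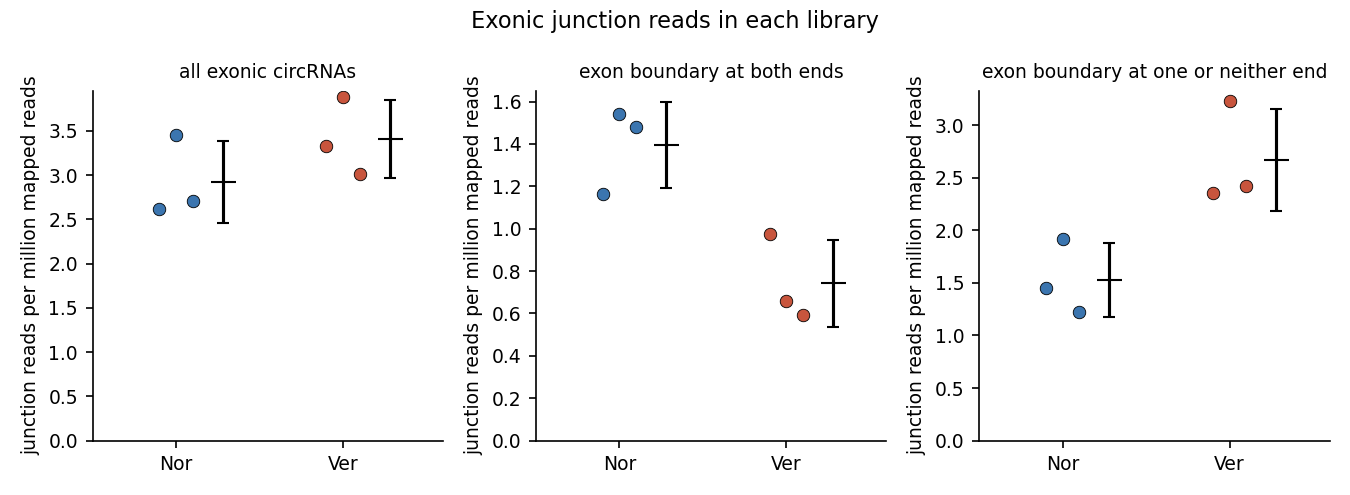
Junction reads per 1000000 mapped reads (RPM, y axis) in the 3 Nor (blue) and 3 Ver (red) libraries for all exonic circRNAs, for members with an exon boundary at both ends, and for the remaining members. Points are libraries and bars are mean ± SD. The groups overlap on the left, Nor lies above Ver in the middle, and Ver lies above Nor on the right.

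These class differences were not equally spread over the members. Without circRNA94, the boundary class was at 1.20 ± 0.20 RPM in Nor and 0.685 ± 0.171 in Ver, still without overlap. Counting only library values of at least 2 reads, it was at 0.874 ± 0.172 and 0.466 ± 0.106. The exon-listed members alone overlapped between groups, at 0.744, 0.667 and 1.0 RPM in Nor and 0.708, 0.356 and 0.404 in Ver. In the remaining class the higher Ver level rested on 1 host: without BraA05g025150.3C the values were 1.37 ± 0.37 and 1.67 ± 0.56 RPM and overlapped.

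At the level of single circRNAs little could be called. The edgeR quasi-likelihood fit covered 318 circRNAs of all kinds with at least 5 junction reads, 61 of them exonic. Calls needed a log2 fold change beyond 1 in either direction together with a p, not adjusted, no higher than 0.05. Of the 61 exonic members, 1 was called, against 5.35% of all circRNAs tested. None had a Benjamini-Hochberg adjusted p of at most 0.05, and the smallest adjusted p of an exonic member was 0.373. At an unadjusted p of at most 0.05 edgeR gave 1 exonic member, its exact test 3 and DESeq2 2. The exact test included the member called by the edgeR fit, and DESeq2 did not. In 6 of the 61 the Nor and Ver libraries did not overlap, against 11.6% of all circRNAs tested.

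The called member was circRNA259 (A09, 33926744 to 33926976, minus strand), which lies over 2 exons of BraA09g043930.3C with only 1 end at an annotated boundary. This host encodes a peroxisomal monodehydroascorbate reductase, which regenerates the antioxidant ascorbate. No read was found in the 3 Nor libraries, and the Ver libraries had 3, 3 and 7 reads. With the Nor group set to a floor of 3 reads, the pooled Ver level was 4.32-fold higher. This ratio takes no account of counting error or of the spread between libraries, so it is not a lower bound. In the edgeR quasi-likelihood test the p was 0.0404 before and 0.373 after adjustment. The call was lost without Nor replicate 1, with an edgeR p of 0.0628, and on leaving out any Ver replicate, with 0.0732 to 0.107. Its host was slightly lower in Ver, at 94.6 ± 1.3 FPKM in Nor and 78.1 ± 1.0 in Ver (SD, n = 3 each, log2 fold change -0.28 ± 0.02, edgeR adjusted p = 0.000657), which is below the fold threshold.

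One of the 2 members read in all 6 libraries was circRNA94, which spans 9 exons and 2937 bp of BraA03g036230.3C (A03, 17892524 to 17895460, plus strand), a gene of unknown function. It had 16, 15 and 13 reads across Nor and 7, 4 and 2 across Ver. Every Nor library lay above every Ver library, at 0.194 ± 0.031 and 0.0571 ± 0.0344 RPM (SD, n = 3 each, exact permutation p = 0.1). In the edgeR fit its log2 fold change was -1.73 ± 1.02 (adjusted p = 0.373) and it was not called. The host transcript was barely present, at 31, 60 and 65 counts across Nor and 51, 32 and 55 across Ver. The 57 junction reads thus stood beside 294 counts of the whole annotated host transcript. The 7 assembled transcripts of this gene summed to 11314 counts, from 1599 to 2134 per library. Relative to the host transcript, the junction reads had a log2 fold change of -1.67 ± 1.70 (edgeR adjusted p = 0.464).

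The other member read in all 6 libraries, circRNA388, covers 3 exons of BraA07g013620.3C (A07, 12671502 to 12672143), which encodes a tetratricopeptide repeat protein 38-like protein. It had 5, 7 and 4 reads in Nor and 6, 2 and 10 in Ver, and the groups overlapped (log2 fold change 0.11 ± 1.13, edgeR adjusted p = 0.990). Another boundary member, circRNA62 in the gene of a homologue of the telomere length regulation protein TEL2 (BraA06g024530.3C), had 0, 8 and 7 reads in Nor and 0, 0 and 3 in Ver. For circRNA717, the values were 3, 5 and 5 in Nor and 0, 2 and 0 in Ver, again without overlap but not called (edgeR adjusted p = 0.408). Its host fell, from 203, 189 and 255 counts across Nor to 58, 86 and 91 across Ver (log2 fold change -1.48 ± 0.23, edgeR adjusted p = 0.00657).

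The other highly read members came from few libraries. The 41 reads of circRNA1250 all came from Ver replicate 2, as did the 39 reads of circRNA1249 and the 29 of circRNA485. The 32 reads of circRNA1329 all came from Ver replicate 3. Reads of circRNA810 were found in Nor replicate 1 (10 reads) and Ver replicate 1 (13 reads) only. Of the circRNAs singled out in the study, circRNA1157 is typed as exonic, with BraA05g025150.3C as named host. It lies on the strand opposite to this host with neither end at an annotated boundary. It had 0 reads in all 3 Nor libraries and 11, 6 and 0 in Ver. The pooled total of 17 reads is 5.64-fold above a floor of 3 reads over the Nor group, a ratio without allowance for error. The edgeR adjusted p was 0.373.

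**Figure D3:**
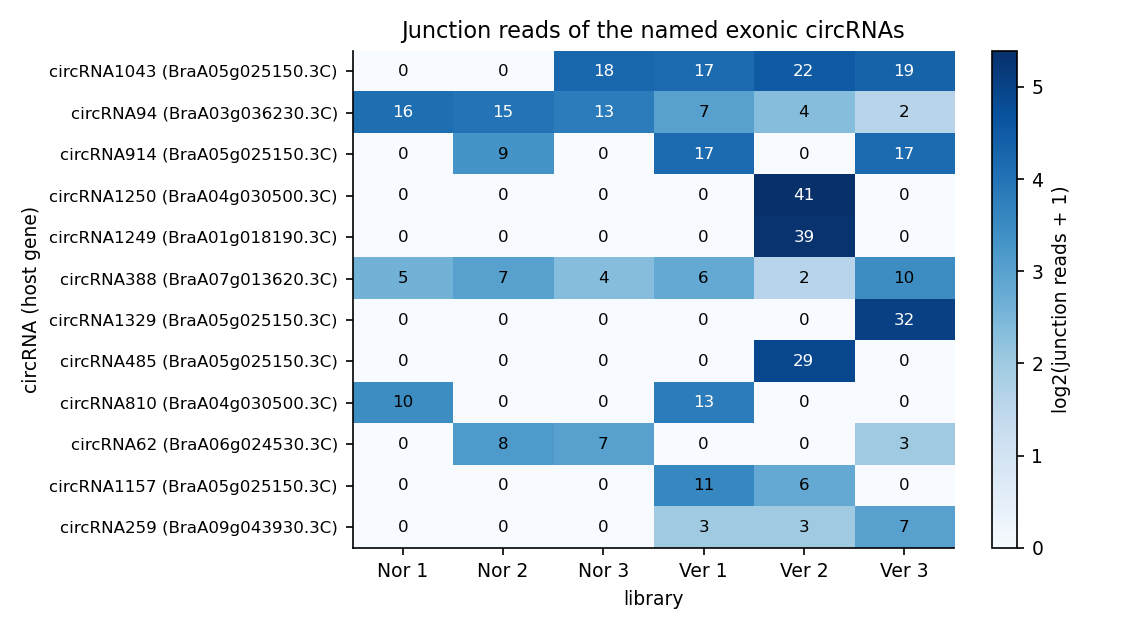
Junction reads (number in each cell, colour on a log2(reads + 1) scale) of 12 exonic circRNAs in each library (columns), with the host gene in brackets. Only circRNA94 and circRNA388 have reads in all 6 libraries, and the 41 reads of circRNA1250 and 39 of circRNA1249 are in Ver 2 alone.

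A single gene, BraA05g025150.3C, was the named host of 21 circRNAs typed as exonic, with 18.5% of all exonic reads. It encodes a cell wall-plasma membrane linker protein, a proline-rich protein thought to tie the plasma membrane to the wall, and is annotated as 1 exon on the plus strand (A05, 18909098 to 18910228). All 21 members were on the minus strand with neither end at an annotated boundary. They are thus not back-spliced exons of this gene as it is annotated. They lay between base 206 and base 787 of the host, spanned 136 to 264 bp, and used 17 starts but only 7 ends, with 6 members sharing 1 end. In 17 of the 21 the reads came from a single library. By group, 16 were read in Ver only, 2 in Nor only and 3 in both. The most read was circRNA1043 (A05, 18909420 to 18909581), with 0, 0 and 18 reads in Nor and 17, 22 and 19 in Ver. Reads of circRNA914 were 0, 9 and 0 in Nor and 17, 0 and 17 in Ver. Since these members overlap and have shared ends, they are not independent features.

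**Figure D4:**
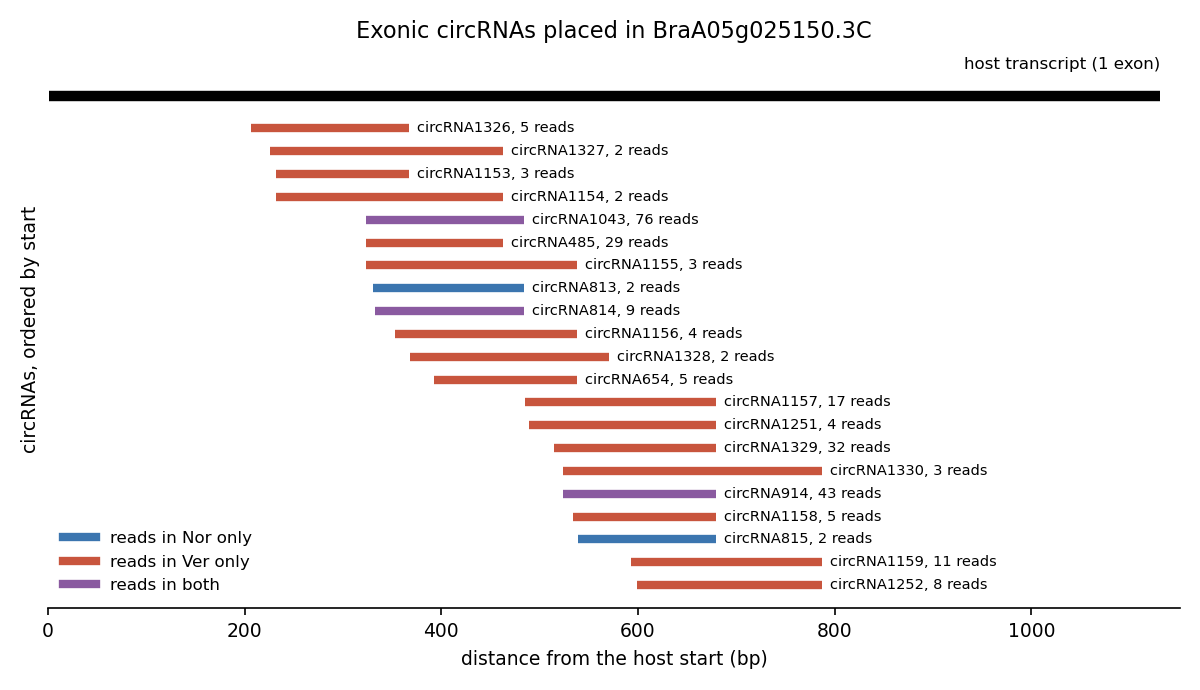
The 21 circRNAs typed as exonic and placed in BraA05g025150.3C, drawn by distance from the host start in bp (x axis) and ordered by start. The black bar is the 1-exon host, blue members had reads in Nor only, red in Ver only and purple in both. All lie between base 206 and base 787, and several have the same end.

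Summed over its members, BraA05g025150.3C had 7, 12 and 18 junction reads in Nor and 78, 69 and 83 in Ver. In RPM this was 0.162 ± 0.069 and 0.999 ± 0.079, a 6.16-fold difference with no overlap (SD, n = 3 each, exact permutation p = 0.1). The host was chosen for its many circRNAs and reads, and 230 of its 267 reads were in Ver. The choice itself therefore favours a higher Ver level of junction reads, here and relative to the host, and these values are descriptive. The linear transcript rose from 731 ± 3 FPKM in Nor to 2040 ± 66 in Ver (log2 fold change 1.48 ± 0.03, edgeR adjusted p = 6.14e-06). Per 100000 host counts the junction reads were 6.17, 12.6 and 15.6 in Nor and 26.0, 23.8 and 26.1 in Ver, so the ratio was higher in every Ver library (2.20-fold, exact permutation p = 0.1, n = 3 each). Since all its members were on the opposite strand, this does not compare circular with linear RNA of the same strand. In the fit of junction reads relative to the host, the log2 fold change was 1.13 ± 0.63 (edgeR unadjusted p = 0.0754, adjusted p = 0.333), and it was not called. This host held 5.58% of the exonic reads in Nor and 29.4% of those in Ver.

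**Figure D5:**
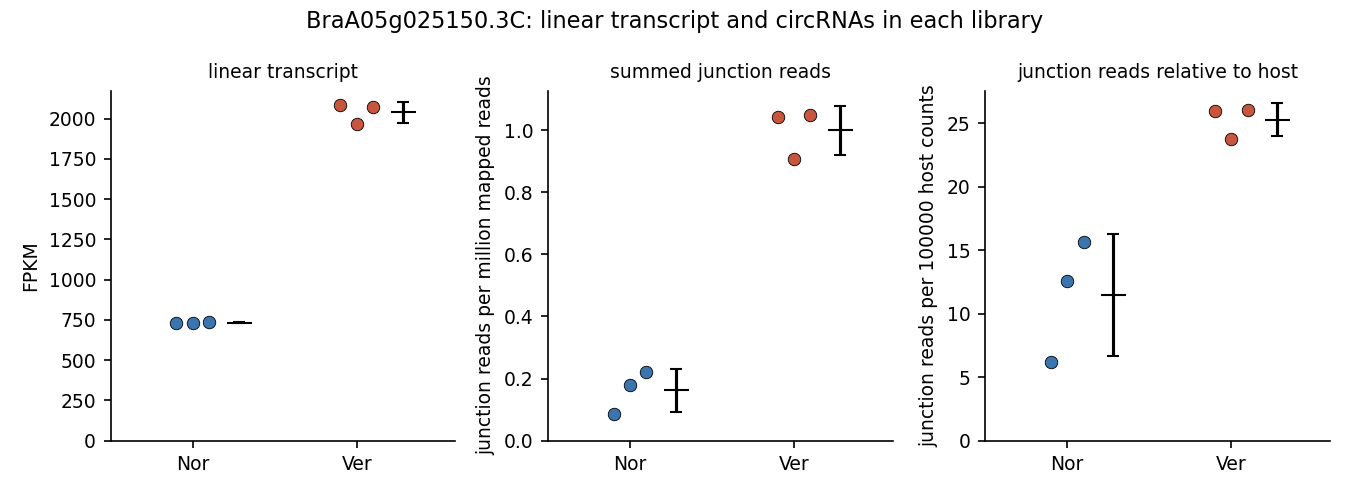
BraA05g025150.3C in the 3 Nor (blue) and 3 Ver (red) libraries: FPKM of the linear transcript, summed junction RPM, and junction reads per 100000 host counts. Points are libraries and bars are mean ± SD. Ver lies above Nor in all 3 panels.

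Of the other 5 hosts with at least 3 members, 3 encode extensin-like or proline-rich proteins. BraA04g030500.3C, an extensin-2-like gene (extensins are hydroxyproline-rich wall glycoproteins with repeated motifs), held 11 members, all on the opposite strand. It had 14, 0 and 6 reads in Nor and 38, 41 and 21 in Ver. Its own counts were uneven within groups, at 1125, 10387 and 695 across Nor and 1351, 1254 and 15353 across Ver. BraA03g040080.3C, a 36.4 kDa proline-rich protein-like gene, held 5 opposite-strand members with 5, 0 and 0 reads in Nor and 11, 12 and 3 in Ver. Its linear transcript was at 288 ± 5 FPKM in Nor and 420 ± 13 in Ver, a log2 fold change of 0.54 ± 0.03 that is below the fold threshold. BraA07g040410.3C, an extensin-3-like gene, held 3 opposite-strand members with 8, 10 and 0 reads in Nor and 0, 4 and 0 in Ver, without a change of the linear transcript past the thresholds (610 ± 13 and 643 ± 39 FPKM). The members of the remaining pair, BraA06g023040.3C and the glycine dehydrogenase gene BraA01g004980.3C (3 members, 5 reads), lay on the strand of the host. BraA06g023040.3C is described as a photosystem II CP43 reaction center-like gene, a protein encoded in the chloroplast genome of plants, and held 6 members with 5, 6 and 13 reads in Nor and 3, 0 and 0 in Ver. Whether reads of near-identical gene copies were split among these hosts was not tested. Of the 48 opposite-strand members whose span was a multiple of 3 bp among 76, 14 belonged to BraA05g025150.3C. Among exon-listed members 76 of 213 spans were a multiple of 3.

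Among hosts as linear transcripts, 295 of the 315 passed the count filter. Of these, 49 were called at the study's thresholds, against 17.8% of all 26531 reference transcripts tested, so 16.6% of hosts is near the background. In Ver 24 were higher and 25 lower, where 8.42% of all transcripts were higher and 9.39% lower. With a Benjamini-Hochberg adjusted p of at most 0.05, 20 hosts were higher and 20 lower, against 15% of all transcripts in either direction. The median log2 fold change was -0.05 over tested hosts and -0.01 over all tested transcripts. Of hosts of the boundary class 27 of 199 (13.6%) were called and of the remaining hosts 23 of 98 (23.5%).

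The host changes given next are the largest among hosts with an adjusted p of at most 0.05, a mean of 10 or more counts in the group with fewer, and no overlap between Nor and Ver. Larger fitted changes lay in hosts with next to no counts in a group, such as the aldose reductase gene BraA03g000210.3C (1, 0 and 0 counts in Nor, 365, 204 and 526 in Ver) and the isochorismate synthase 2-like gene BraA06g014590.3C (216, 379 and 85 counts in Nor, 0 in each Ver library). BraA01g017840.3C, a napin (a seed storage albumin), rose from 2.15 ± 0.53 FPKM in Nor to 218 ± 11 in Ver (log2 fold change 6.66 ± 0.23, edgeR adjusted p = 3.28e-05). BraA05g039920.3C, a glucose and ribitol dehydrogenase homologue, rose from 0.487 ± 0.014 to 12.9 ± 0.4 FPKM and carried 1 junction read, in Nor. BraA09g009670.3C, a Rab18-like dehydrin of the late embryogenesis abundant proteins, which protect cells under water loss, rose from 6.26 ± 0.24 to 113 ± 1 FPKM and carried 3 junction reads in Ver replicate 2. BraA07g000930.3C, an NADP-dependent malic enzyme, rose from 1.86 ± 0.05 to 26.4 ± 0.4 FPKM with 1 junction read in each group. These 4 rises, of log2 fold change 3.83 to 6.66, had edgeR adjusted p-values of 1.51e-06 to 3.28e-05.

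By the same rule, the 4 largest falls had log2 fold changes of -4.19 to -2.71, and each host carried 1 or 2 junction reads, all in Nor. BraA02g009340.3C, of unknown function, fell from 58.6 ± 3.3 FPKM in Nor to 3.22 ± 0.34 in Ver. BraA03g033950.3C, beta-glucosidase 23, fell from 2.08 ± 0.82 to 0.282 ± 0.044 FPKM. BraA03g062560.3C, a synthase of the sesquiterpene caryophyllene, fell from 3.14 ± 0.57 to 0.431 ± 0.201 FPKM. BraA04g028030.3C, a proline transporter, fell from 1.13 ± 0.35 to 0.171 ± 0.029 FPKM. Their edgeR adjusted p-values were 1.33e-05 to 0.0061. At such read numbers a matching change of the circRNA was not detectable.

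Hosts were grouped by words in the authors' descriptions. The photosynthesis and plastid group was the largest, with 29 hosts and 132 junction reads, of which 68 were in Nor and 64 in Ver. Of its 26 tested hosts 2 were called higher and 3 lower, where 14.8% of all tested transcripts of this group were called in either direction. The higher ones were both chlorophyll a-b binding proteins 1, light-harvesting antenna proteins: BraA08g023650.3C with 355 FPKM in Nor and 1921 in Ver, and BraA09g035160.3C with 394 and 3306. Its most read host after the CP43-like gene was BraA04g031000.3C, a 20 kDa chloroplast chaperonin, whose circRNA had 5, 0 and 2 reads in Nor and 3, 0 and 8 in Ver. BraA03g051830.3C, a chloroplast heat shock 70 kDa protein, had 0, 4 and 2 reads in Nor and 0, 5 and 2 in Ver. Neither linear transcript passed the fold threshold.

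The protein kinase and phosphatase group had 16 hosts, all of the boundary class, with 20 junction reads, and 0 of 14 tested hosts were called (14.2% of all tested transcripts of this group were). Membrane transport had 12 hosts and 17 reads, with 1 of 11 called, the proline transporter, against 23.3% of the group. Cell wall had 7 hosts and 164 reads, 51 in Nor and 113 in Ver, of which 120 lay in the extensin-2-like gene. The third extensin host, the extensin-1-like BraA03g022600.3C, had 0, 9 and 0 reads in Nor and 0, 3 and 3 in Ver. In the cell wall group 1 of 7 hosts was called (29.3% of all tested transcripts of the group were), the pectin acetylesterase gene BraA07g004050.3C, which was lower in Ver at 0.522 against 0.153 FPKM. The words of this list did not take in BraA05g025150.3C, so its 267 reads and its higher transcript are not in these counts.

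In the ribosome and translation group 0 of 6 hosts were called, against 3.97% of the group, and in the RNA binding and splicing group 0 of 5, against 8.39%. The latter list held 30 reads, 25 in Nor and 5 in Ver, but 13 of the Nor reads were on BraA04g013940.3C, which its description places here as a helicase although it names the DNA repair helicase XPB1. That gene had 4, 9 and 0 reads in Nor and none in Ver, beside host counts of 68, 41 and 30 in Nor and 69, 79 and 45 in Ver. These counts are of the annotated transcript only, and the assembled gene held 2989 to 3629 counts per library. Carbohydrate metabolism had 11 hosts and 31 reads, with 2 called higher, against 12.7% of the group called in either direction. It included the cytosolic glyceraldehyde-3-phosphate dehydrogenase gene BraA06g009730.3C, whose 8 reads were all in Ver replicate 1 while the transcript was at 529 ± 6 FPKM in Nor and 526 ± 10 in Ver. In the ubiquitin and proteasome group, BraA04g028000.3C encodes HOS1, an E3 ubiquitin ligase known in Arabidopsis as a regulator of cold responses and flowering time. Its 2 circRNAs had 3, 0 and 2 reads in Nor and 2, 0 and 0 in Ver, and its annotated transcript, at 0.0417 ± 0.0319 and 0.170 ± 0.126 FPKM, was not called. The assembled gene was far more abundant, with 2149 to 2673 counts per library and a log2 fold change of -0.004. Over the last groups, 1 of 8 tested cytoskeleton and vesicle traffic hosts was called (11.2% of the group), 0 of 3 in chromatin and transcription (20.1%), 3 of 7 in peroxisome, fatty acid and lipid (29.8%), and 1 of 5 in ubiquitin and proteasome (14.1%). Both hosts of the seed storage group were called, napin higher and the cruciferin CRU4 gene BraA10g002460.3C lower, and so was the only late embryogenesis host, the dehydrin. Of all tested transcripts 85.7% of the seed storage group and 55.8% of the late embryogenesis group were called.

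Junction reads were then set against the host transcript in each library. Over all matched hosts there were 70.4 ± 10.4 exonic junction reads per 1000000 host counts in Nor and 74.9 ± 9.9 in Ver (SD, n = 3 each, exact permutation p = 0.50), and the groups overlapped. The boundary class was at 159, 193 and 200 in Nor and 117, 74.9 and 70.9 in Ver, with no overlap. The remaining class was at 39.1, 53.7 and 34.3 in Nor and 58.9, 82.3 and 60.8 in Ver, also with no overlap (exact permutation p = 0.1 for each class, n = 3 each). Of the 958 junction reads of the remaining class, 582 were on the strand opposite to the host. The values of this class, and of all members together, are therefore not ratios of circular to linear RNA of the same strand. With counts summed over all assembled transcripts of each gene the boundary class was at 58.0 ± 7.0 in Nor and 36.3 ± 10.7 in Ver without overlap, whereas the remaining class overlapped, at 23.4 ± 10.3 and 34.2 ± 8.4. The choice of denominator matters because the annotated host transcript held a median of 19.1% of the counts of its assembled gene in the boundary class and 98.0% in the hosts without such members.

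For 45 hosts with at least 5 junction reads the ratio ranged from 0.457 to 20690 junction reads per 100000 host counts, with a median of 30.4. Against the counts of the assembled gene it ranged from 0.233 to 1701, with a median of 12.1. The highest against the host transcript was BraA10g015060.3C, which encodes the DNA repair enzyme DNA ligase 4, with 12 junction reads beside 58 counts. In the edgeR fit relative to the host, 3 of 45 hosts (6.67%) were called and none at an adjusted p of at most 0.05, where the smallest was 0.333 and 3 hosts had an unadjusted p of at most 0.05. All 3 rested on 1 or 2 libraries, and the circRNAs of BraA10g016300.3C and BraA01g017840.3C were on the strand opposite to the host. BraA07g032360.3C had its 15 reads in Nor replicate 2 alone (relative log2 fold change -7.15 ± 3.06). BraA10g016300.3C had its 5 reads in Ver replicate 2 alone (8.84 ± 3.92). The napin gene BraA01g017840.3C had 5 reads in Nor replicate 1 and 2 in Ver replicate 3 (-7.80 ± 3.57), and without Nor replicate 1 the fitted value was 2.04. For the first 2 of these hosts, the assembled gene did not follow the annotated transcript: the log2 fold change was 2.21 for the transcript and -0.78 for the gene in BraA07g032360.3C, and -6.65 and 0.15 in BraA10g016300.3C.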

How the data were processed

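Counts of junction reads per circRNA and library were deposited by the authors, who aligned trimmed reads to B. rapa v3.0 with TopHat-Fusion and identified circRNAs with CIRCexplorer. The authors also deposited a normalised junction signal (SRPBM), used here only as an alternative scaling. For linear transcripts, the authors deposited estimated counts and FPKM values from StringTie and Ballgown. Library totals were 83976912 to 104903263 linear counts and 2647 to 5491 junction reads. Estimated counts were rounded. Members were the circRNAs typed as exonic with a named host. The host was the reference transcript of the same name. CircRNAs with at least 5 junction reads were fitted with edgeR 4.0.16 (quasi-likelihood, R 4.3.3) using mapped reads as library sizes, and linear transcripts with filterByExpr and TMM factors. Junction reads summed per host were fitted with the log of the host count + 1 as offset. Single values were compared by exact permutation (SciPy 1.17.1). DESeq2 1.42.0 and limma 3.58.1 served as alternatives. Scripts were tested on simulated data. Named genes were the called members, the 10 members with most reads, the 5 hosts with most members (ties by reads), those the study names, the hosts called relative to their transcript, the 4 largest rises and falls among hosts with an adjusted p of at most 0.05, a mean of 10 or more counts in the group with fewer, and no overlap of groups, and up to 3 hosts per group with most reads; genes named beyond these were chosen after their values were seen. Group words were matched at word starts. Members and lists were chosen with earlier results of these data known. Deposited columns holding the authors' own comparisons were not used.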

Additional observations from a re-analysis of the deposited data

How the results depend on the processing

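The total of exonic junction reads had no stable direction. The difference of Ver minus Nor, 0.484 RPM, became -0.0445 with members seen in at least 2 libraries, -0.654 with the boundary class, -0.353 without BraA05g025150.3C and -0.648 with members on the strand of the host. Leaving out 1 library at a time gave 0.246 to 0.749. The difference in detected members, -16.7, became 2.33 with at least 2 reads per library, and was -21.2 to -11.7 on leaving out 1 library. The difference in exonic share, 2.98 percentage points, became -0.562 for the boundary class, 1.05 without BraA05g025150.3C and 0.899 with members in at least 2 libraries, with exact permutation p of 0.2 and 0.3, and was 2.27 to 3.51 on leaving out 1 library. The difference per 1000000 host counts, 4.46, became -11.2 without BraA05g025150.3C (the host with the most junction reads), -2.33 without the host with the most counts and -96.4 for the boundary class, with -0.915 to 10.4 on leaving out 1 library, the lowest without Ver replicate 2. The settings by class, strand and host were chosen after seeing the data. The difference between exonic and other circRNAs was -20.5 to -17.7 reads on leaving out 1 library, where 5 libraries allow no p below 0.0625.

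The 1 exonic call became 0 with adjusted p-values, 0 with library sizes from the deposited SRPBM values, 2 with TMM factors, 2 with DESeq2, 3 with the exact test, 6 with the totals of junction reads, 9 at 3 or more reads, 3 at 10 or more, 10 with no filter, and 0 to 5 on leaving out 1 library (0 without Nor replicate 1, 3 without Nor replicate 2, 5 without Nor replicate 3, 2 without Ver replicate 1, 2 without Ver replicate 3). Of the 9 and of the 10, none was circRNA259. The 3 calls relative to the host became 0 with adjusted p-values, 8 with gene sums, 1 at 10 or more reads, and 1 to 5 on leaving out 1 library (5 without Ver replicate 1, 1 without Ver replicate 2). The 49 host calls ranged from 36 with limma on log2(FPKM + 1) to 59 with DESeq2, 45 to 51 on leaving out 1 library, and 27 in the boundary class, which has fewer hosts. With gene sums 35 of the 49 hosts were called in the same direction and 7 had the opposite sign, among them BraA06g023040.3C (0.39), BraA07g032360.3C (-0.78) and BraA10g016300.3C (0.15). The napin gene relative to its host ranged from -9.31 to 2.04 on leaving out 1 library, with 2.04 without Nor replicate 1.

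No pairing by replicate number was seen: deviations of same-numbered Nor and Ver libraries correlated at -0.00135 to -0.000888. Whether same-numbered libraries shared a dish is not settled by this. With the replicate block 0 exonic circRNAs, 46 hosts and 0 hosts relative to the transcript were called. An exact permutation of signs within the 3 pairs gave p = 0.25 for each of the 4 totals, the smallest possible. Depth limits all of this: 61 of 394 members had at least 5 reads.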
